A study of Saccharomyces cerevisiae with 17 samples.

Results

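Mitochondrial protein import was followed here through 42 of the 5449 Saccharomyces cerevisiae genes on an Affymetrix Yeast Genome 2.0 array. The 42 are the genes whose symbol names a subunit of the TOM, SAM or TIM complexes or of the import motor (PAM), and named genes of the disulfide relay, the motor chaperones, the processing peptidases and the insertase. Of these, 39 are known for import roles, and 3 carry a matching symbol but are known for other work: TOM1, a ubiquitin ligase, PAM1, and TIM11, subunit e of the ATP synthase. Each gene had 1 probe set, and all 42 probe sets were above the background of the array.

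Nearly all mitochondrial proteins are encoded in the nucleus, made in the cytosol and carried across the mitochondrial membranes after or during their synthesis. They enter through the TOM complex of the outer membrane and then part ways: proteins with a presequence pass TIM23 and are pulled in by the motor, carriers are led by small TIM chaperones to TIM22, barrel proteins go to SAM, and small cysteine-rich proteins are folded and trapped by the disulfide relay. Budding yeast needs these routes in fermenting as well as in respiring cells.

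The study compared yeast grown in space with yeast grown on the ground. All cultures were of the haploid laboratory strain BY4742, either unmodified (WT), labelled as overexpressing the flocculation gene FLO1, or labelled BY4742::FLO8, in which FLO8 is the activator of flocculation and adhesion genes. The cells were kept in saline, received rich medium (2 x YPD) 5 days after launch and grew for 72 h at 23 °C in liquid, in microgravity on the International Space Station or at 1 g in a programmable incubator that followed the logged temperatures. They were then filtered and fixed in RNAlater. Each strain had 3 ground arrays, and flight was represented by 3 arrays of WT, 2 of FLO1 and 3 of FLO8. The ground run took place postflight, so flight and the time of the run cannot be told apart. The labels name neither the promoter behind FLO1 nor the number of clones, and do not say whether replicates were separate cultures, so each p-value measures the spread between these arrays, which may be technical. In these bulk RNA samples, fewer cells holding a transcript and less transcript per cell cannot be told apart.

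The FLO1 probe set stood at 12.70 and 12.54 (log2 group means, ground and flight) in the FLO1 strain, against 8.46 to 9.94 in the other groups. The FLO8 probe set went against its label, at 7.76 and 8.05 in the strain labelled FLO8 and at 9.03 to 9.36 elsewhere, while FLO11, a target of Flo8, stood at 12.17 and 12.42 there and at 8.57 to 9.02 elsewhere. The name FLO8 below therefore stands for the label only. BY4742 is a MATα strain: the 4 alpha-cell genes examined had group means of 9.57 to 12.53, and the a-cell genes, 6.01 to 10.05, were also above background. Of the 8 flight arrays, 4 stood apart: WT flight 3, FLO1 flight 1, FLO8 flight 2 and FLO8 flight 3 lay 0.539, 0.704, 0.725 and 0.528 from their strain's ground mean (root mean square over all genes, log2), and the others lay 0.328 to 0.428 away. These 4 were picked from the values themselves. A fit without them keeps 1 flight array each of FLO1 and FLO8, and its spread comes mostly from the ground arrays, which varied less. Adjusted p-values of that fit thus tend to be too small, and calls in it are not read as results. The 3′ minus 5′ signal of 7 control genes, a measure of RNA integrity, was higher in flight by 0.14 on average (exact permutation within strains, two-sided p = 0.0015, smallest possible 0.00025). It was 1.18 ± 0.02 in flight and 1.09 ± 0.05 on the ground in WT, 1.34 ± 0.11 and 1.08 ± 0.07 in FLO1, and 1.19 ± 0.06 and 1.14 ± 0.06 in FLO8 (SD, n = 3 except n = 2 for FLO1 flight). The part of this measure in the differences reported here was not tested beyond the fit that carries it as a covariate.

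Averaged over the 3 strains, the flight cultures held more mRNA of the relay oxidoreductase MIA40 and of the peptidase subunit MAS2 than the ground cultures, and no import gene passed the test in the lower direction. MIA40 was higher by 0.79 (log2, SE 0.14, 1.73-fold) and MAS2 by 0.34 (SE 0.09, 1.26-fold). The call of MAS2 was lost in 18 of 25 alternative settings and that of MIA40 in 1. The 25 include the fit without the 4 arrays that stood apart, whose calls are not read as results. Both calls were lost with the 3′ minus 5′ signal as a covariate, a fit that called none of all genes. The differences there were 0.93 for MIA40 and 0.41 for MAS2. These 2 of 42 genes, both higher, compare with 4.31% of all 5449 genes, of which 2.31% were higher and 2% lower, at an adjusted p below 0.05 (limma, Benjamini-Hochberg adjustment over all genes). The same 2 were called among the 39 genes with import roles. At an unadjusted p below 0.05 there were 11 of the 42, or 26.2%, against 21.7% of all genes, so the number of import genes past either threshold was near the background. The median flight difference of the 42 was 0.16, against 0.03 for all genes, and 27 of the 42 differences were above 0 where 54.9% of all genes were. That median moved towards the background in other settings: it was 0.072 without FLO1 flight 1 (all genes 0.039), 0.047 with array weights (0.033) and 0.052 without the 4 arrays that stood apart (0.045). For none of the 42 did the 8 flight arrays and the 9 ground arrays separate without overlap, as 0.569% of all genes did.

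**Figure D1:**
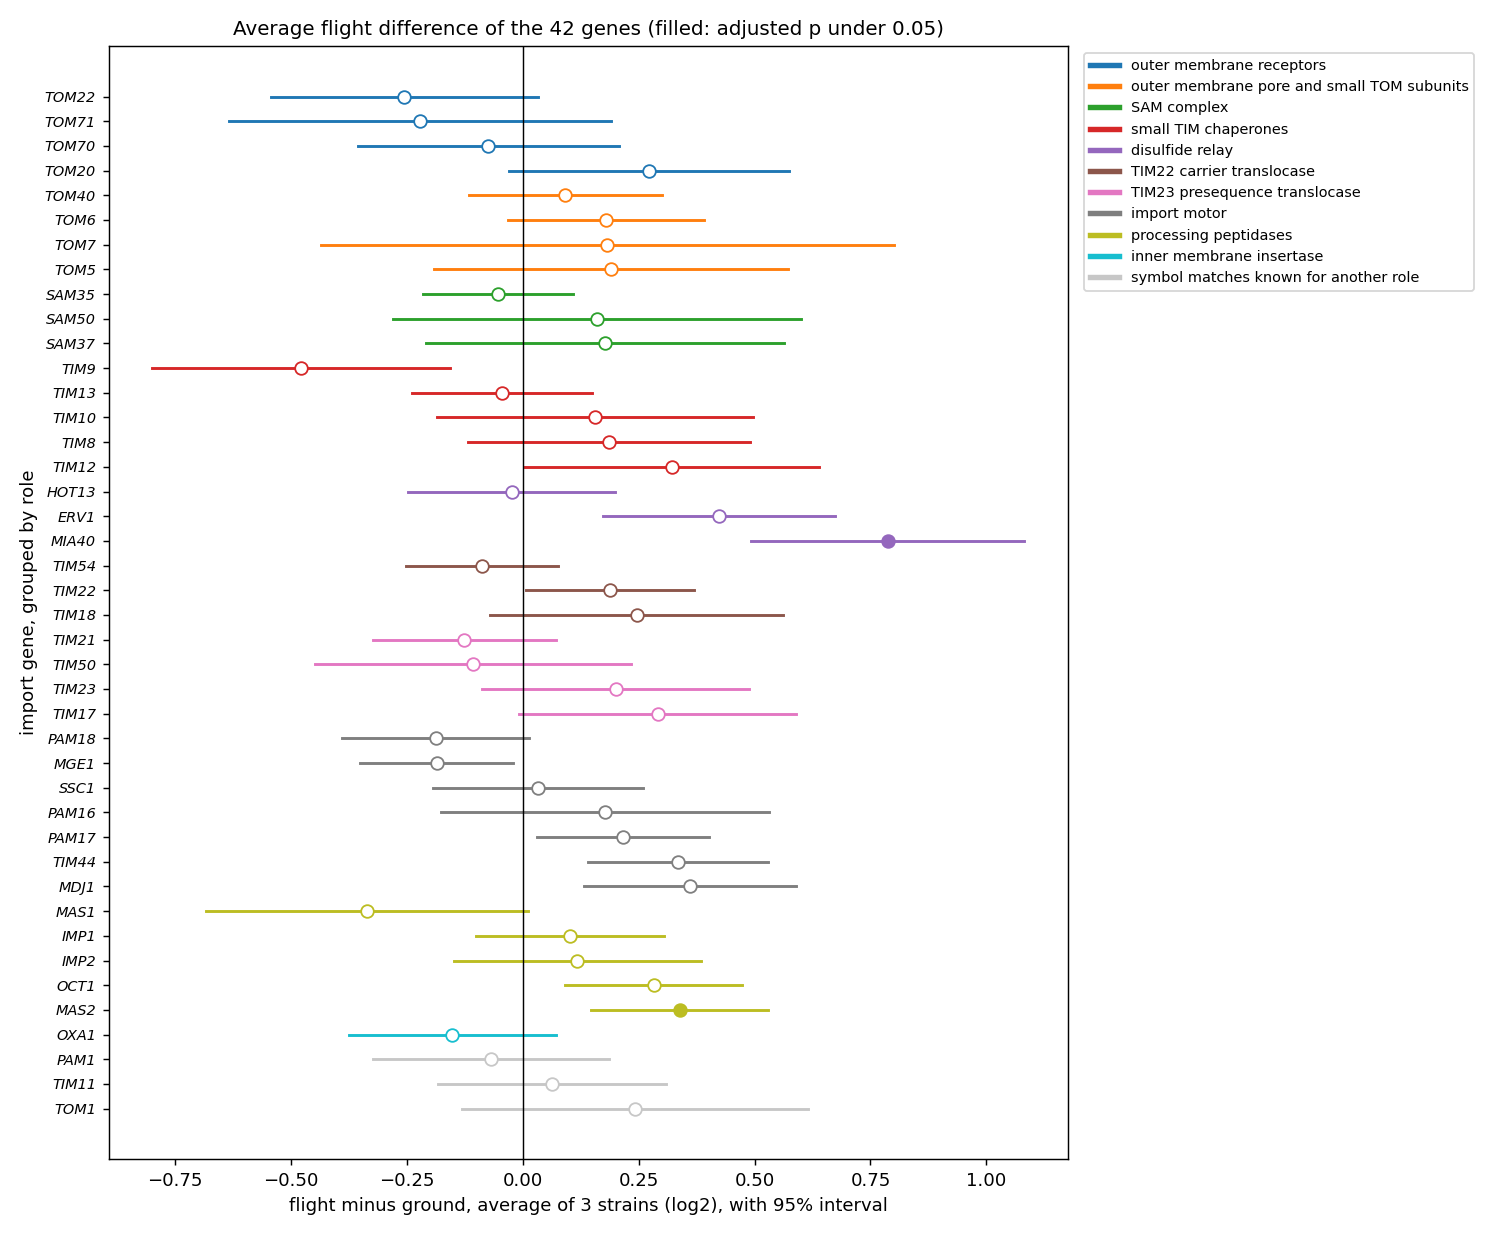
Flight minus ground, averaged over the 3 strains, for each of the 42 genes on the x axis (log2), with genes grouped by role on the y axis, points for the fitted differences and lines for 95% intervals. The filled points are the genes called, MIA40 at 0.79 (0.49 to 1.08) and MAS2 at 0.34 (0.15 to 0.53), and the lowest point is TIM9 at -0.48.

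The receptors of the TOM complex bind precursors in the cytosol. Tom20 and Tom22 recognise presequences, and Tom70 with its paralog Tom71 recognises carriers and other precursors with inner signals and their chaperones. None of the 4 passed the test: the average flight difference was 0.27 for TOM20 (adjusted p = 0.282), -0.26 for TOM22 (0.292), -0.22 for TOM71 (0.533) and -0.07 for TOM70 (0.782). Probe set levels are given below as log2 signals, array by array in the order of the replicate numbers. TOM22 stood at 11.77, 11.999 and 12.46 in WT, 11.95, 11.89 and 11.88 in FLO1 and 11.95, 11.52 and 11.60 in FLO8 on the ground arrays. In flight it stood at 11.87, 11.69 and 11.68 in WT, 11.68 and 11.41 in FLO1 and 11.24, 11.47 and 12.15 in FLO8. Its flight mean was below its ground mean in each strain, but the arrays of the groups overlapped except in FLO1. TOM71 was at 9.55, 9.62 and 9.05 in WT, 9.57, 9.76 and 9.57 in FLO1 and 9.66, 9.66 and 9.57 in FLO8 on the ground. On the flight arrays it was 9.88, 9.62 and 8.82 in WT, 8.84 and 9.63 in FLO1 and 9.94, 8.65 and 9.41 in FLO8. It was lowest on the WT, FLO1 and FLO8 flight arrays that stood farthest from the ground in their strains and -0.22 from its ground mean or higher on the rest. Without the 4 arrays that stood apart, TOM22 stood at -0.42 and TOM71 turned to 0.21. Over all arrays TOM20 ranged from 10.34 to 11.49 and TOM70 from 11.12 to 12.22.

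Tom40 forms the pore, and the small subunits Tom5, Tom6 and Tom7 bind it, Tom5 passing precursors on and Tom6 and Tom7 acting on the stability of the complex in opposite ways. The 4 differences were all above 0 and none passed the test: 0.09 for TOM40 (adjusted p = 0.613), 0.19 for TOM5 (0.566), 0.18 for TOM6 (0.308) and 0.18 for TOM7 (0.752). TOM6 stood at 12.31, 12.36 and 11.96 in WT, 12.25, 12.03 and 12.21 in FLO1 and 12.43, 12.34 and 12.20 in FLO8 on the ground. Its flight levels were 12.52, 12.54 and 12.32 in WT, 12.77 and 12.28 in FLO1 and 12.20, 12.45 and 12.10 in FLO8. FLO1 flight arrays were both above the FLO1 ground arrays, while those of WT and FLO8 overlapped with the ground. TOM7 was at 10.43, 10.42 and 10.21 in WT, 9.90, 9.85 and 10.08 in FLO1 and 10.12, 9.87 and 9.74 in FLO8 on the ground. Its flight levels were 10.16, 9.55 and 10.70 in WT, 11.48 and 9.29 in FLO1 and 9.56, 11.23 and 9.91 in FLO8. The flight arrays of each strain lay on both sides of its ground mean, the widest spread among the 42 genes. The sign of TOM7 rested on the arrays that stood apart: it turned to -0.18 without FLO1 flight 1 and to -0.50 without all 4. TOM5 turned to -0.16 without the 4 arrays. TOM40 ranged from 11.10 to 11.56 and TOM5 from 10.24 to 11.62 over the 17 arrays.

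The SAM complex places barrel proteins in the outer membrane. Sam50 is its barrel-shaped core, and Sam35 and Sam37 are its partners on the cytosolic side. The average flight differences were -0.05 for SAM35 (adjusted p = 0.71), 0.18 for SAM37 (0.594) and 0.16 for SAM50 (0.683). SAM35, among the steadiest of the 42 genes, was at 11.66, 11.75 and 11.53 in WT, 11.73, 11.77 and 11.83 in FLO1 and 11.92, 11.91 and 11.87 in FLO8 on the ground. In flight it stood at 11.93, 11.61 and 11.91 in WT, 11.57 and 11.72 in FLO1 and 11.77, 11.72 and 11.61 in FLO8. The FLO1 and FLO8 flight arrays were below all ground arrays of their strain, those of WT overlapped with theirs. SAM50 was at 8.23, 8.27 and 8.54 in WT, 8.54, 8.82 and 8.61 in FLO1 and 8.31, 8.69 and 8.85 in FLO8 on the ground. Its flight levels were 8.84, 9.01 and 7.94 in WT, 8.24 and 9.02 in FLO1 and 9.07, 8.07 and 9.49 in FLO8. It was below its strain's ground arrays on WT flight 3, FLO1 flight 1 and FLO8 flight 2 and above them on every other flight array. Without the 4 arrays that stood apart, SAM50 was at 0.46 and SAM37 turned to -0.17. SAM37 ranged from 8.22 to 9.69.

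The small TIM proteins are chaperones of the intermembrane space, built on a twin CX3C motif. Tim9 and Tim10 work together as a hexamer, Tim8 and Tim13 as another, and Tim12 docks the first at TIM22. TIM9 had the lowest average flight difference of all 42 genes, -0.48 (SE 0.15, adjusted p = 0.0851 by limma, which missed the threshold). It stood at 11.01, 11.32 and 11.02 in WT, 11.15, 10.80 and 10.91 in FLO1 and 11.30, 10.82 and 10.59 in FLO8 on the ground. Flight levels of TIM9 were 11.19, 10.81 and 10.53 in WT, 10.13 and 10.60 in FLO1 and 10.36, 9.86 and 10.77 in FLO8. Both FLO1 flight arrays were below the FLO1 ground arrays, while the WT and FLO8 arrays overlapped. The TIM9 difference passed the threshold without FLO8 flight 3 (-0.55, adjusted p = 0.0377), and its adjusted p reached 0.639 over the alternatives. It was -0.56 without FLO1 flight 2, a fit that keeps 1 FLO1 flight array, and -0.34 without the 4 arrays that stood apart. Its partner TIM10 had a difference of 0.16 (adjusted p = 0.594) in the other direction. TIM10 was at 11.29, 11.36 and 11.33 in WT, 11.15, 11.14 and 11.21 in FLO1 and 11.11, 10.996 and 11.13 in FLO8 on the ground. The flight arrays gave 11.05, 11.02 and 11.63 in WT, 11.83 and 11.03 in FLO1 and 10.69, 11.81 and 11.63 in FLO8. Each strain had flight arrays above and below its ground arrays. Without the 4 arrays that stood apart TIM10 turned to -0.27, and with array weights it was -0.07. TIM12 had a difference of 0.32 (adjusted p = 0.224). Its ground levels were 8.62, 8.39 and 8.14 in WT, 8.32, 8.17 and 8.30 in FLO1 and 8.42, 8.47 and 8.25 in FLO8. The flight levels were 8.38, 8.53 and 8.82 in WT, 8.75 and 8.66 in FLO1 and 8.11, 9.39 and 8.63 in FLO8. Only the FLO1 flight arrays were all above their ground arrays. TIM8 (0.19, adjusted p = 0.469) and TIM13 (-0.04, 0.812) differed less. TIM8 was at 9.82, 9.62 and 9.88 in WT, 9.56, 9.40 and 9.52 in FLO1 and 9.28, 9.51 and 9.54 in FLO8 on the ground. In flight TIM8 stood at 9.54, 9.73 and 9.65 in WT, 10.50 and 9.47 in FLO1 and 9.17, 9.93 and 9.85 in FLO8. Its highest level was on FLO1 flight 1, and the groups of each strain overlapped. TIM13 was at 12.06, 12.17 and 11.89 in WT, 12.004, 11.85 and 11.98 in FLO1 and 12.17, 12.06 and 11.97 in FLO8 on the ground. In flight TIM13 was 11.98, 11.72 and 12.04 in WT, 12.14 and 11.74 in FLO1 and 11.92, 12.26 and 12.004 in FLO8. Flight and ground overlapped in every strain.

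In the disulfide relay, Mia40 oxidises cysteine pairs of incoming intermembrane space proteins, among them the small TIM proteins, Erv1 is the sulfhydryl oxidase that restores Mia40, and Hot13 binds zinc and acts on Mia40. MIA40 (YKL195W) had the largest flight difference of the 42 genes, 0.79 (95% interval 0.49 to 1.08, adjusted p = 0.00926 by limma). On the ground it stood at 9.91, 9.52 and 10.06 in WT, 9.62, 9.65 and 9.43 in FLO1 and 9.55, 9.54 and 9.92 in FLO8. In flight it stood at 9.93, 10.65 and 10.86 in WT, 10.54 and 10.53 in FLO1 and 10.11, 10.51 and 10.62 in FLO8. All flight arrays of FLO1 and FLO8 were above all ground arrays of their strains, and in WT flight 1 lay among the ground arrays while the other flight arrays lay above them. Group means were 9.83 ± 0.28 on the ground and 10.48 ± 0.49 in flight in WT, 9.57 ± 0.12 and 10.54 ± 0.01 in FLO1, and 9.67 ± 0.22 and 10.41 ± 0.27 in FLO8 (SD, n = 3 except n = 2 for FLO1 flight). Without the 4 arrays that stood apart the difference was 0.62. With the 3′ minus 5′ signal as a covariate it was 0.93 and was no longer called (adjusted p = 0.423, range over the 25 alternatives 0.00194 to 0.423). That fit called none of all genes.

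ERV1 (YGR029W) had a difference of 0.42 (SE 0.12, adjusted p = 0.0567), just short of the threshold. It was at 8.85, 8.74 and 8.85 in WT, 8.96, 8.99 and 8.98 in FLO1 and 9.12, 9.06 and 8.98 in FLO8 on the ground, where its replicates differed little. On the flight arrays it was 9.20, 9.005 and 9.41 in WT, 10.002 and 9.12 in FLO1 and 9.09, 9.57 and 9.36 in FLO8. Flight was above ground on all arrays of WT and FLO1, and in FLO8 flight 1 lay among the ground arrays. Without the 4 arrays that stood apart the ERV1 difference was 0.16 (adjusted p = 0.124), and without FLO1 flight 1 alone it was 0.28 (0.135). ERV1 passed the threshold without FLO8 flight 1 (0.46, adjusted p = 0.0471), and its adjusted p reached 0.692 over the alternatives. Without FLO1 flight 2 the difference was 0.57, in a fit whose only FLO1 flight array is FLO1 flight 1, 1 of the 4 that stood apart. HOT13 had a difference of -0.02 (SE 0.10, 95% interval -0.25 to 0.20). It stood at 9.98, 9.73 and 10.29 in WT, 10.02, 9.98 and 10.02 in FLO1 and 9.76, 9.94 and 10.22 in FLO8 on the ground. In flight HOT13 was 9.88, 10.03 and 9.74 in WT, 10.40 and 10.002 in FLO1 and 9.64, 9.92 and 9.89 in FLO8. The groups overlapped in every strain.

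**Figure D2:**
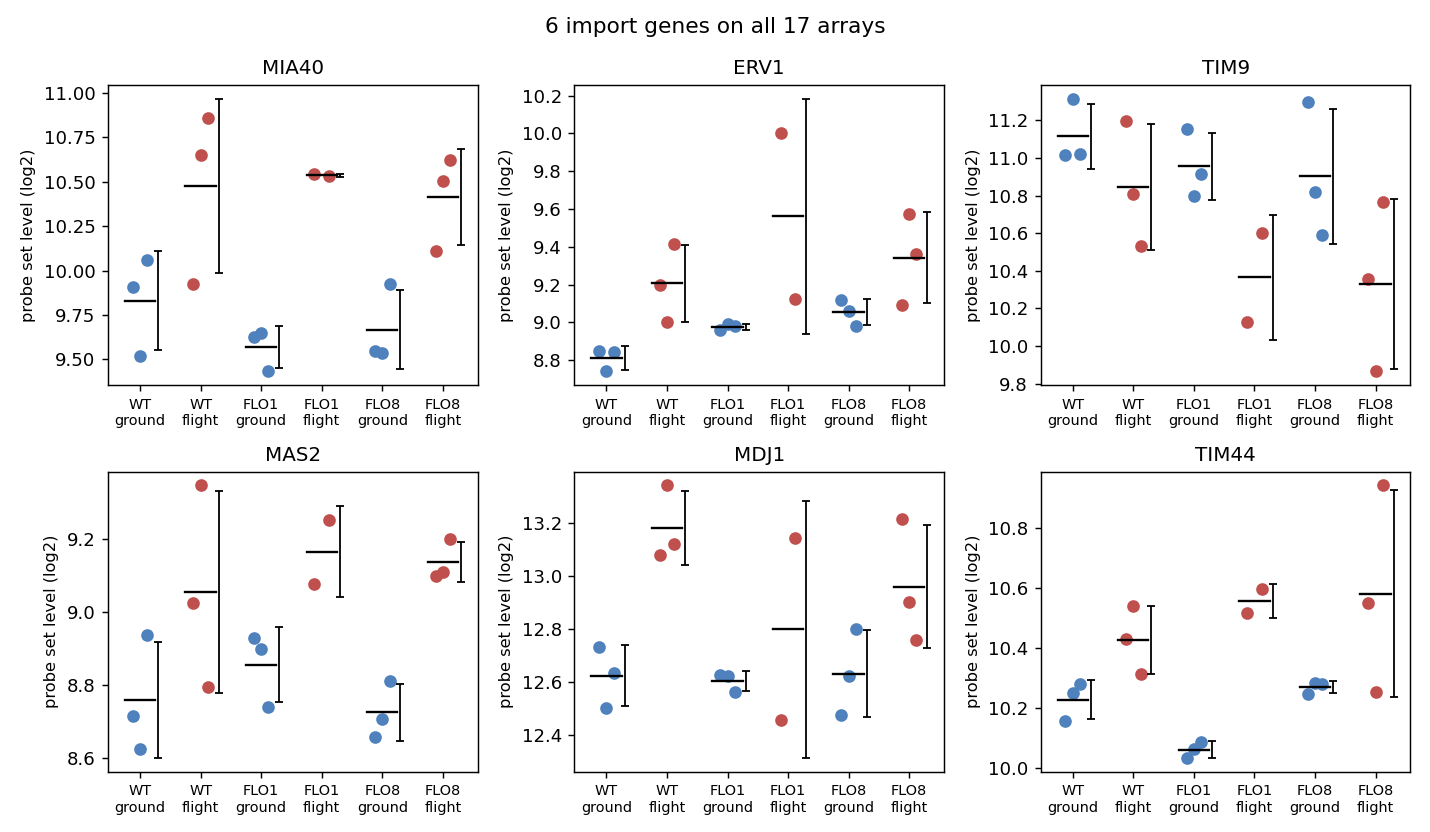
Probe set levels (log2, y axis) of MIA40, ERV1, TIM9, MAS2, MDJ1 and TIM44 on all 17 arrays, by strain and condition (x axis), with ground arrays in blue, flight arrays in red, a line at each group mean and a bar for 1 SD on either side of it. MIA40 lay at 9.43 to 10.06 on the ground and at 9.93 to 10.86 in flight, and TIM9 was lowest on FLO8 flight 2, at 9.86.

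Carrier proteins are inserted into the inner membrane by the TIM22 complex, in which Tim22 is the channel, Tim54 reaches into the intermembrane space and Tim18 helps in assembly. The average differences were 0.19 for TIM22 (SE 0.08, adjusted p = 0.213), 0.25 for TIM18 (0.354) and -0.09 for TIM54 (0.534). TIM54 was at 10.82, 10.78 and 10.94 in WT, 10.92, 10.83 and 10.83 in FLO1 and 10.89, 10.83 and 10.77 in FLO8 on the ground. On the flight arrays it was 11.08, 10.87 and 10.81 in WT, 10.72 and 10.76 in FLO1 and 10.82, 10.47 and 10.55 in FLO8. It was lowest on FLO8 flight 2 and 3, and only the FLO1 groups did not overlap. TIM22 ranged from 8.38 to 8.95 and TIM18 from 8.94 to 9.99; TIM22 was above its ground arrays on each flight array of FLO1 and FLO8.

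Presequence proteins pass the TIM23 complex, whose channel is made of Tim23 and Tim17, with Tim50 as the receptor on the outer face and Tim21 as the link to TOM. Its members split in sign, with none past the test: 0.29 for TIM17 (adjusted p = 0.245) and 0.20 for TIM23 (0.41), against -0.13 for TIM21 (0.448) and -0.11 for TIM50 (0.726). TIM23 was at 0.38 without FLO1 flight 2, a fit whose only FLO1 flight array is FLO1 flight 1. It turned to -0.04 without the 4 arrays that stood apart. Over the 17 arrays TIM17 ranged from 10.72 to 11.90, TIM23 from 9.70 to 10.83, TIM21 from 11.07 to 11.74 and TIM50 from 9.65 to 11.01.

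The motor on the matrix side is built around the Hsp70 Ssc1, tethered to the channel by Tim44, with the exchange factor Mge1, the J protein Pam18, its partner Pam16 and the assembly factor Pam17; Mdj1 is the J protein that works with Ssc1 in folding. Of the 7 genes, 5 differences were above 0 and none was called. TIM44 (YIL022W) came closest, at 0.33 (SE 0.09, adjusted p = 0.0527). It was at 10.16, 10.25 and 10.28 in WT, 10.03, 10.07 and 10.09 in FLO1 and 10.25, 10.28 and 10.28 in FLO8 on the ground, with the smallest ground spread of the 42 genes (0.04 SD about the group means). Flight levels were 10.43, 10.54 and 10.31 in WT, 10.52 and 10.60 in FLO1 and 10.55, 10.25 and 10.94 in FLO8. Every flight array of WT and FLO1 was above the ground arrays, and FLO8 flight 2 was not. The TIM44 difference was 0.39 (adjusted p = 0.00884) without FLO8 flight 2 alone and 0.27 (0.0431) without FLO8 flight 3 alone, and these passed the threshold. It was 0.36 without the 4 arrays that stood apart, and its adjusted p reached 0.639 over the alternatives.

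MDJ1 (YFL016C) had a difference of 0.36 (SE 0.11, adjusted p = 0.0726). On the ground it was at 12.73, 12.50 and 12.63 in WT, 12.63, 12.62 and 12.56 in FLO1 and 12.48, 12.62 and 12.80 in FLO8. In flight it stood at 13.08, 13.34 and 13.12 in WT, 12.46 and 13.14 in FLO1 and 13.21, 12.90 and 12.76 in FLO8. All WT flight arrays were above the WT ground arrays, and FLO1 flight 1 was below its ground arrays. The MDJ1 difference passed the threshold without FLO8 flight 3 (0.39, adjusted p = 0.0474). It also passed with array weights (0.44, 0.0105), a setting that called a larger share of all genes than the main fit. It was 0.57 without the 4 arrays that stood apart and 0.47 without FLO1 flight 1. Its adjusted p reached 0.567 over the alternatives. For MGE1 the difference was -0.19 (SE 0.08, adjusted p = 0.181). MGE1 stood at 11.16, 11.30 and 10.93 in WT, 11.09, 11.03 and 10.97 in FLO1 and 11.03, 10.93 and 10.95 in FLO8 on the ground. Its flight levels were 11.12, 11.07 and 10.86 in WT, 10.75 and 10.69 in FLO1 and 10.74, 10.88 and 10.89 in FLO8. The FLO1 and FLO8 flight arrays were all below their ground arrays. PAM18 also had a difference of -0.19 (SE 0.09, adjusted p = 0.269). PAM18 was at 9.57, 9.65 and 9.27 in WT, 9.43, 9.36 and 9.30 in FLO1 and 9.57, 9.51 and 9.53 in FLO8 on the ground. Its flight levels were 9.29, 9.51 and 8.88 in WT, 9.17 and 9.29 in FLO1 and 9.27, 9.47 and 9.39 in FLO8. Again the FLO1 and FLO8 groups did not overlap and the WT groups did. SSC1, whose probe set gave the highest mean signal of the 42 (signals of different probe sets do not rank transcripts), had a difference of 0.03 (95% interval -0.19 to 0.26). SSC1 stood at 13.31, 13.38 and 13.32 in WT, 13.39, 13.39 and 13.21 in FLO1 and 13.28, 13.18 and 13.29 in FLO8 on the ground. On the flight arrays SSC1 was 13.50, 13.82 and 13.09 in WT, 13.24 and 13.51 in FLO1 and 13.41, 12.93 and 13.18 in FLO8. Flight arrays lay above, among and below the ground arrays. The differences of PAM17 and PAM16 were 0.22 (adjusted p = 0.164) and 0.18 (0.563).

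Once in the matrix, presequences are cut off by the processing peptidase, a dimer of the catalytic Mas1 and the substrate-binding Mas2. Oct1 then removes an octapeptide from some proteins, and Imp1 and Imp2 are the catalytic subunits of the inner membrane peptidase. MAS2 (YHR024C) was called, at 0.34 (95% interval 0.15 to 0.53, adjusted p = 0.0475 by limma). It was at 8.72, 8.63 and 8.94 in WT, 8.93, 8.90 and 8.74 in FLO1 and 8.66, 8.71 and 8.81 in FLO8 on the ground. The flight arrays gave 9.02, 9.35 and 8.79 in WT, 9.08 and 9.25 in FLO1 and 9.10, 9.11 and 9.20 in FLO8. All flight arrays of FLO1 and FLO8 were above their ground arrays, and WT flight 3 lay among those of WT. The call was near the threshold: it was lost in 18 of 25 alternatives, over which the difference ranged from 0.29 to 0.41 (adjusted p 0.0118 to 0.573). With median centring of each array the difference was 0.30 and was not called (adjusted p = 0.0848 by limma). Without the 4 arrays that stood apart the difference was 0.40. Among single arrays, the call was kept without WT ground 3, WT flight 3 or FLO8 flight 2, and lost without any other (adjusted p 0.0517 to 0.11).

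Its partner MAS1 had a difference of -0.34 (SE 0.16, adjusted p = 0.248). MAS1 stood at 11.65, 11.58 and 12.21 in WT, 11.85, 12.03 and 11.88 in FLO1 and 11.99, 11.98 and 12.07 in FLO8 on the ground. On the flight arrays it was 11.72, 11.71 and 11.49 in WT, 10.95 and 11.93 in FLO1 and 11.87, 11.05 and 12.07 in FLO8. FLO1 flight 1 and FLO8 flight 2 were far below the rest, and the groups of each strain overlapped. Without the 4 arrays that stood apart the MAS1 difference was -0.08. OCT1, at the other end of the probe set signals, had a difference of 0.28 (SE 0.09, adjusted p = 0.0857). OCT1 was at 6.92, 7.11 and 7.14 in WT, 7.19, 7.32 and 7.03 in FLO1 and 7.12, 7.05 and 7.03 in FLO8 on the ground. Its flight levels were 7.48, 7.51 and 7.42 in WT, 7.51 and 7.39 in FLO1 and 7.42, 7.38 and 6.89 in FLO8. All WT and FLO1 flight arrays were above their ground arrays, and FLO8 flight 3 was below those of FLO8. OCT1 passed the threshold without FLO8 flight 3 alone (0.34, adjusted p = 0.0217) and with array weights (0.35, 0.0256), which called a larger share of all genes than the main fit. It was 0.34 without the 4 arrays that stood apart, and its adjusted p reached 0.725 over the alternatives. IMP1 had a difference of 0.10 (adjusted p = 0.563). IMP1 was at 9.87, 10.30 and 10.08 in WT, 10.22, 10.43 and 10.29 in FLO1 and 10.38, 10.28 and 10.24 in FLO8 on the ground. In flight IMP1 was 10.45, 10.13 and 10.13 in WT, 10.58 and 10.19 in FLO1 and 10.33, 10.24 and 10.56 in FLO8. The groups overlapped in every strain. IMP2 had a difference of 0.12 (0.61), with levels from 8.69 to 9.76.

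Oxa1 inserts proteins into the inner membrane from the matrix side. OXA1 had a difference of -0.15 (SE 0.10, adjusted p = 0.422) and ranged from 9.98 to 10.93. The 3 genes known for other roles had differences of 0.24 (TOM1, adjusted p = 0.444), -0.07 (PAM1, 0.777) and 0.06 (TIM11, 0.789). TOM1 was called higher with array weights (0.50, adjusted p = 0.0165), which called a larger share of all genes than the main fit. It was at 0.68 without the 4 arrays that stood apart. By role, the median difference was highest in the relay (0.42, 3 genes), followed by TIM22 (0.19), the pore with its small subunits (0.18), the motor (0.18), SAM (0.16), the small TIM chaperones (0.16), the peptidases (0.12) and TIM23 (0.05), and it was below 0 for the receptors (-0.15). With 3 to 7 genes a role, these medians are descriptions, and their order was not kept without the 4 arrays that stood apart, where the receptors had a median of 0.11, the pore with its small subunits -0.03, the small TIM chaperones -0.18 and the relay 0.16.

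Within single strains, limma called none of the 42 genes for flight against ground. In WT 0 of 42 were called (background 0.147%, 8 genes, all lower) and 3 had an unadjusted p below 0.05 (background 10%). In FLO1 0 were called (0.0367%) and 5 had such a p (13.1%), and in FLO8 0 were called (0%) with 5 (6.55%). MIA40 was the gene with the lowest p in FLO1 and in FLO8: its difference was 0.65 in WT (adjusted p = 0.306), 0.97 in FLO1 (0.179) and 0.75 in FLO8 (0.672). In WT the lowest p was that of MDJ1, at 0.56 (SE 0.18, adjusted p = 0.228). Second after MIA40 came TIM44 in FLO1, at 0.49 (adjusted p = 0.247), and MAS2 in FLO8, at 0.41 (0.744). Among the negative differences, the lowest p belonged to PAM18 (-0.27) and TOM22 (-0.33) in WT, MGE1 (-0.31) and TIM9 (-0.59) in FLO1, and TIM9 (-0.57) and TIM54 (-0.22) in FLO8. The median over the 42 genes was 0.07 in WT (all genes 0.06), 0.17 in FLO1 (0.01) and 0.09 in FLO8 (0.01). In FLO1 it was 0.073 without FLO1 flight 1 (all genes 0.034), and in FLO8 it turned to -0.053 with array weights (0.0095) and to -0.044 without the 4 arrays that stood apart (0.019).

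Flight and ground arrays did not overlap for 4 genes in WT, all higher in flight: ERV1, MDJ1, OCT1 and TIM44 (10.5% of all genes were higher without overlap, and 5.51% lower). In FLO1, with 2 flight arrays, 12 were higher and 6 lower (22.9% and 18.5%). In FLO8 IMP2, MAS2, MIA40 and TIM22 were higher and MGE1, PAM18 and SAM35 lower (6.57% and 4.39%). The difference had the same sign in all 3 strains for 19 genes above 0 and 7 below 0, where 27.2% and 19.9% of all genes did so. The 7 were MAS1, MGE1, OXA1, PAM18, TIM13, TIM9 and TOM22, and for TIM13 the values in FLO1 and FLO8 were -0.0018 and -0.0051.

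Whether flight acted differently on the strains was tested by the difference of the flight differences. Limma called none of the 42 genes and none of all genes (0%) in FLO1 against WT, FLO8 against WT or FLO1 against FLO8, and 0 of the 42 had an unadjusted p below 0.05 (background 3.51%, 2.95% and 3.38%). The lowest p belonged to TIM8 in FLO1 against WT (0.62, SE 0.36), SAM35 in FLO8 against WT (-0.37, SE 0.18) and TOM6 in FLO1 against FLO8 (0.43, SE 0.25), with adjusted p of 0.994, 0.998 and 0.998. For MIA40 the 95% intervals of these differences were -0.42 to 1.05 for FLO1 against WT, -0.60 to 0.79 for FLO8 against WT and -0.51 to 0.96 for FLO1 against FLO8, which is the limit that these arrays set on a difference between strains.

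The strains were next compared within a condition. On the ground limma called none of the 42 genes in FLO1 against WT (background 0.0367%), FLO8 against WT (0.0367%) or FLO1 against FLO8 (0.0734%). None of the 42 had an unadjusted p below 0.05 there (1.38%, 3.56% and 0.899%). Ground arrays did not overlap for 3 of the 42 higher and 5 lower in FLO1 against WT (610 and 421 of all 5449 genes). These counts and those that follow are descriptions and are not read as a trait of the import genes. For FLO8 against WT the counts were 3 and 4 (594 and 446), and for FLO1 against FLO8 1 and 5 (518 and 503). The lowest p belonged to IMP1, 0.23 higher in FLO1 than in WT (SE 0.16, adjusted p = 1), SAM35, 0.25 higher in the strain labelled FLO8 than in WT (SE 0.13, adjusted p = 0.998), and TIM44, at -0.21 in FLO1 against FLO8 (SE 0.15, adjusted p = 1). In flight none was called either (0.0367%, 0.0367% and 0.0551%), and 1 gene had an unadjusted p below 0.05 in the 3 comparisons, TIM54 at -0.31 in FLO8 against WT (SE 0.13, adjusted p = 0.435, background 9.98%, and 7.76% and 8.35% for the comparisons with FLO1). MGE1 stood at -0.30 in FLO1 against WT (SE 0.14, adjusted p = 0.656) and HOT13 at 0.39 in FLO1 against FLO8 (SE 0.19, adjusted p = 0.631). The median over the 42 genes lay between -0.04 and 0.02 in these 6 comparisons. Each SE pools ground and flight arrays, whose median SD was 0.14 and 0.32, so ground SEs tend to be too large and flight SEs too small. The absence of ground calls therefore does not show that the strains were alike, and p-values of the flight comparisons tend to be too small. TIM44 was lower on every FLO1 ground array (10.03 to 10.09) than on any FLO8 ground array (10.25 to 10.28), as were 503 of all 5449 genes. A fit of the compared ground arrays alone also called none of the 42. A moderated F test over the 6 groups also called none of the 42 (background 0.33%), with 6 at an unadjusted p below 0.05 (12.5%): MIA40 (adjusted p = 0.158), MDJ1, TIM44, ERV1, MAS2 and TIM9.

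Replicates in flight differed more than replicates on the ground. The median SD about the group means was 0.32 in flight and 0.14 on the ground over the 42 genes, and 0.37 and 0.16 over all genes. The flight SD was the larger for 39 of the 42 genes (92.9%), as for 92.8% of all genes, so the import genes followed the array as a whole. The exceptions were MGE1, PAM17 and HOT13. TOM7 had the largest spread (0.96 in flight, 0.15 on the ground), followed by SAM50 (0.64 and 0.21) and TOM71 (0.59 and 0.19), and the steadiest genes were MGE1, SAM35 and TIM54 (0.11 over all arrays).

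**Figure D3:**
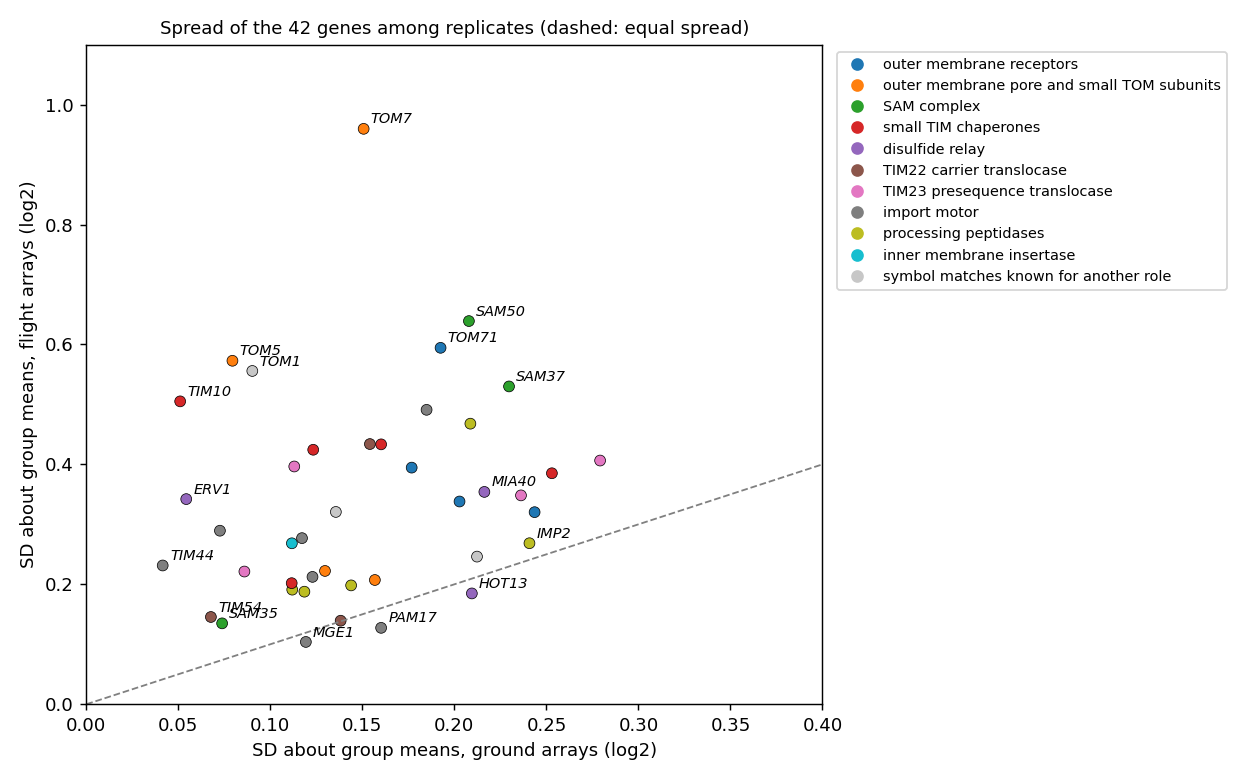
SD of each of the 42 genes about its group means on the 9 ground arrays (x axis, log2) and on the 8 flight arrays (y axis, log2), with colours for roles and a dashed line at equal spread. The axes have different ranges, 39 points lie above the line, and TOM7 lies highest at 0.96.

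Within each strain the flight arrays differed in an ordered way, which is described here after its values were seen. TOM7 was highest on WT flight 3, FLO1 flight 1 and FLO8 flight 2, at 10.70, 11.48 and 11.23. Of the 42 genes, 11 were highest on these same arrays among the flight arrays of their strain (26.2%, all genes 21.6%): ERV1, PAM16, SAM37, TIM10, TIM12, TIM13, TIM18, TIM22, TOM20, TOM5 and TOM7. Another 13 were lowest on them (31%, all genes 22.6%): MAS1, PAM1, SAM50, SSC1, TIM21, TIM44, TIM50, TIM54, TIM9, TOM1, TOM40, TOM70 and TOM71. These arrays were picked for TOM7, so its place in the first set is given by that choice. They also lay farthest from the ground mean in their strains over all genes. The shares were not tested against those of all genes and are not read as a trait of the import genes. MIA40, MAS2, TOM6 and TIM8 were in neither set. Differences from the strain's ground mean reached from -0.97 to 1.53 on FLO1 flight 1 and from -1.04 to 1.32 on FLO8 flight 2. The 3′ minus 5′ signal was 1.18, 1.41 and 1.15 on these 3 arrays and 1.16, 1.21, 1.26, 1.26 and 1.17 on the other flight arrays. It was thus highest on FLO1 flight 1 and lowest on FLO8 flight 2.

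**Figure D4:**
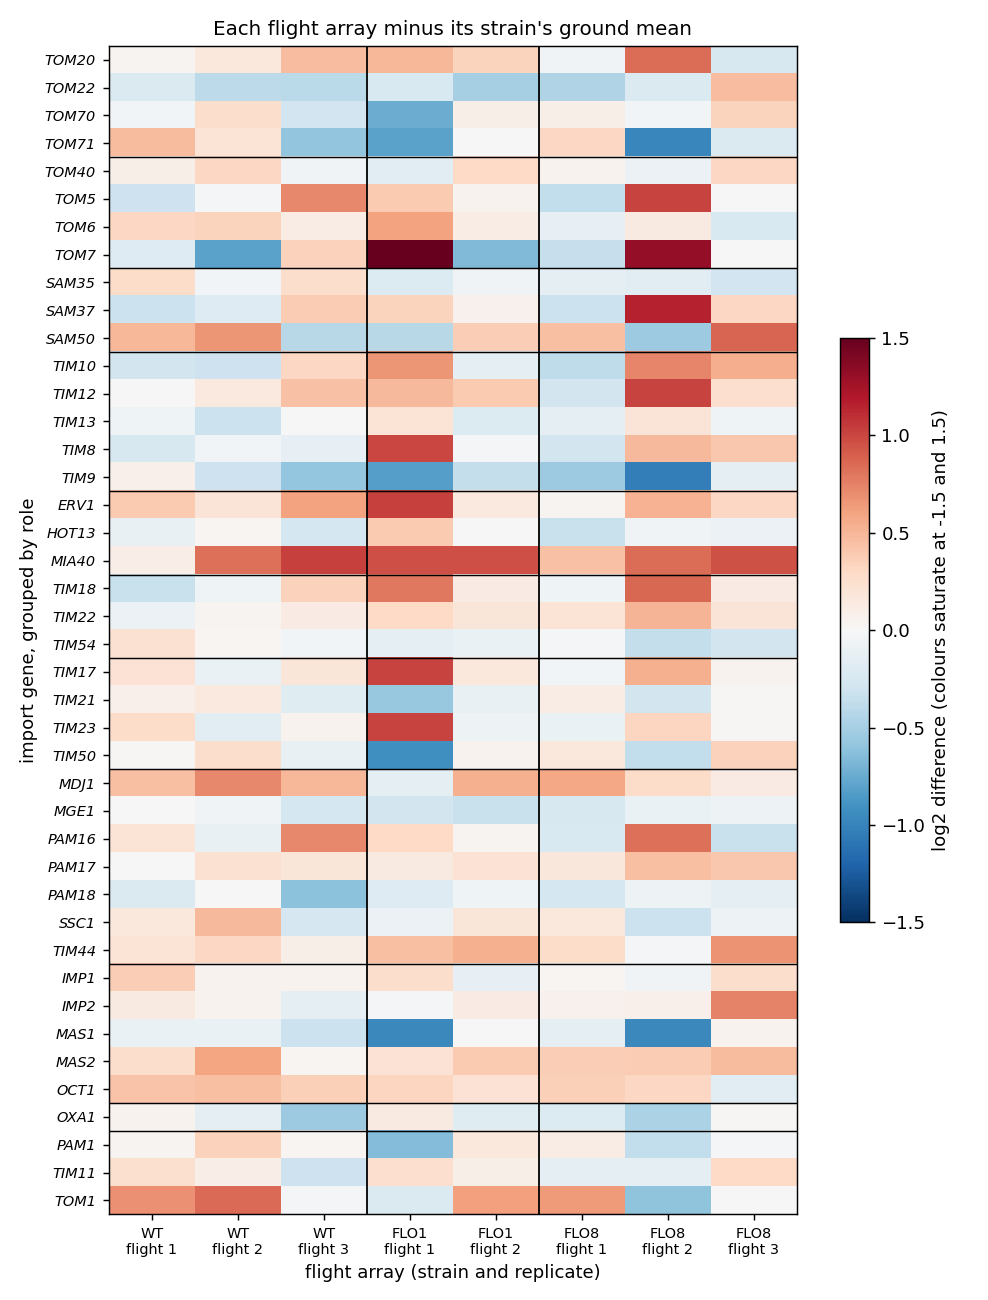
Each flight array (x axis, strain and replicate) minus the ground mean of its strain for each of the 42 genes (y axis, grouped by role), with the log2 difference as colour from blue (lower in flight) to red (higher). FLO1 flight 1 and FLO8 flight 2 carry the strongest colours, with TOM7 at 1.53 and 1.32, and the MIA40 row is red on 7 arrays and pale on WT flight 1.

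Without the 4 arrays that stood apart, the average flight differences of MAS2, MDJ1, MIA40, OCT1, SAM50, TIM44 and TOM1 were 0.40, 0.57, 0.62, 0.34, 0.46, 0.36 and 0.68. Those of TIM10, TOM22 and TOM7 were -0.27, -0.42 and -0.50. For TOM7 the 4 flight arrays left lay at -0.19, -0.81, -0.66 and -0.34 from the ground mean of their strain, so its average was below 0 without the arrays that stood apart and 0.18 with them. In that fit FLO1 flight 2 and FLO8 flight 1 are each the only flight array of their strain and are taken to vary like the other groups. The 4 arrays were picked from these same values, and the spread left comes mostly from the ground arrays, which varied less. Calls in that fit are therefore not read as results, although the tallies over the alternatives include it. TIM10 turned sign in the same way, and 14 of the 42 genes had the opposite sign in that fit.

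Genes that work beside the import machinery were read the same way. Of 36 such genes, among them proteases, prohibitins, porin, matrix chaperones and insertion factors, 2 were called in the average flight difference, both higher. Of the 36 differences 27 were above 0, or 75%, against 54.9% of all genes (median 0.07, all genes 0.03). The 2 called are 5.56% of the list, against 4.31% of all genes, and 30.6% of it had an unadjusted p below 0.05, against 21.7%. CYM1, a peptidase that degrades cleaved presequences, was higher by 0.59 (SE 0.09, adjusted p = 0.00511), and PHB1, a prohibitin, by 0.30 (SE 0.07, adjusted p = 0.0353). PCP1, the rhomboid protease of the inner membrane, had a difference of 0.48 and did not pass (adjusted p = 0.0592). Among proteins that the import routes deliver, limma called 0 of 35 genes of the respiratory chain and ATP synthase (2 at an unadjusted p below 0.05, median -0.01) and 0 of 68 mitochondrial ribosomal protein genes (11 at such a p, median 0.11). Those with an unadjusted p below 0.05 were 5.71% and 16.2%, against 21.7% of all genes. Of 128 cytosolic ribosomal protein genes 47 were called lower in flight, or 36.7%, against 2% of all genes, and 0 higher (median -0.52). Their mean on FLO8 flight 2 was 12.38, above the FLO8 ground mean of 12.24. On every other flight array it was below the ground mean of its strain, and on WT flight 3 (11.98) it was near WT ground 3 (11.999).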

How the data were processed

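Total RNA from 17 yeast samples (6 groups of 2 or 3) was hybridised to Affymetrix Yeast Genome 2.0 arrays, per the labels' protocols. The deposited values are log2 probe set signals; the submitters' processing notes name RMA, the affy package (1.26.1) and MAS5, and no further step is given in the sources used here. The values of the 10928 probe sets ran from 2.58 to 15.08. By the platform annotation 7244 probe sets had 1 gene symbol, 1 had several and the others, 3517 of them besides 166 controls, had none; 5498 named probe sets are those of S. cerevisiae. Probe sets were reduced to 1 per gene (the one with the highest mean signal, for 47 genes with several), which left 5449 genes. Symbols were checked against RefSeq's table of assembly R64 for names only (12 updated). Background was the 95th percentile of the mean signals of the 1747 S. pombe probe sets, 4.56 (log2); 58 genes and no import gene lay below it.

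All 17 arrays entered 1 limma model (3.58.1, R 4.3.3) with a mean per group (11 residual degrees of freedom), eBayes without trend, and Benjamini-Hochberg adjustment over the 5449 genes, for 13 comparisons and an F test. A gene was called at an adjusted p below 0.05, and no filter or pseudocount was used. The number of arrays limits the precision. No pair of arrays was identical (correlations over genes 0.882 to 0.996), and array medians ranged from 9.84 to 9.94. The array median over genes was higher in flight in each strain, by 0.044 on average (exact permutation within strains, two-sided p = 0.00125, smallest possible 0.00025). The labels give groups the same replicate numbers. Same-numbered arrays deviated in the same direction in all 3 pairs for FLO8 and WT on the ground (correlations of deviations from the group means 0.10, 0.26 and 0.53). The labels state no pairing, and the other pairs of groups did not do so throughout. The 3′ minus 5′ signal and the array median were tested by exact permutation within strains. The scripts were tested on simulated data with 1 spread per gene for all arrays. Flight replicates differed more than ground replicates here, so that test does not show how calls behave under unequal spread. Tables were handled with Python 3.11.15, pandas 2.3.3, scipy 1.17.1 and matplotlib 3.10.9.

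The members, the gene lists, the arrays said to stand apart and the tests were chosen with earlier results of these data known. Values on every array are given for genes called in any comparison, for those with the lowest p in each comparison, for the highest and lowest mean signal, for the largest and smallest spread and for the small TIM genes. Alternatives were median centring, eBayes with trend and robust, array weights, a fit of the compared arrays alone, a replicate block, the 3′ minus 5′ signal as a covariate, leaving out genes below background, averaging probe sets, leaving out 4 arrays, and leaving out each array in turn.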

Additional observations from a re-analysis of the deposited data

How the results depend on the processing

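For the average flight difference, the count of import genes called (2, or 4.76%, against 4.31% of all genes) was 1 with median centring (2.38% against 3.51%), 1 with eBayes with trend and robust (3.6% of all genes), 7 with array weights (16.7% against 14.2%) and 0 with the 3′ minus 5′ covariate (0 of all genes). The count without the 4 arrays that stood apart is not given, since that fit keeps 1 flight array each of FLO1 and FLO8. The count was 1 to 5 when single arrays were left out, with 5 without FLO8 flight 3 (11.9% against 6.46%). With the replicate number as a block 1 gene was called (127 of all genes). Same-numbered arrays of FLO8 and WT on the ground deviated in the same direction, and the block changed no call of an import gene in that comparison. The other pairs of groups did not do so throughout (correlations of deviations from -0.51 to 0.64). Whether the numbers pair the arrays was not tested. The median of the 42 genes (0.16) was 0.047 with array weights and 0.052 without the 4 arrays, and 0.072 to 0.16 without single arrays, lowest without FLO1 flight 1. MIA40 kept its call in 24 of 25 alternatives and MAS2 in 7, and a call was gained by MDJ1 and TIM44 in 4, ERV1 and OCT1 in 3 and TIM9 and TOM1 in 2. These counts include the fit without the 4 arrays and those without FLO1 flight 1 or FLO1 flight 2. Each of these fits keeps 1 flight array of FLO1, and calls in them are not read as results. The counts also include averaging probe sets and leaving out genes below background. Neither setting could change the difference of an import gene, since each had 1 probe set above background. The sign turned for TIM10 (-0.068 with array weights, -0.27 without the 4 arrays), TIM23 (-0.031 with the covariate, -0.042 without the 4 arrays) and TOM7 (-0.11 with array weights, -0.13 with the covariate, -0.50 without the 4 arrays and -0.18 to 0.55 without single arrays, below 0 without FLO1 flight 1). It turned in at least 1 alternative for 19 of the 42 genes, and not for MIA40 or MAS2. In single strains, array weights called 4 genes in WT (9.52% against 11% of all genes) and 5 in FLO8 (11.9% against 13.7%). In FLO1 the count was 0 to 4 without single arrays (4 without FLO1 flight 2, 9.52% against 9.36%) and the median 0.073 without the 4 arrays and 0.073 (without FLO1 flight 1) to 0.21 without single arrays. In FLO8 the median (0.09) was -0.053 with array weights and -0.044 without the 4 arrays. Between strains on the ground, array weights called 1 gene in FLO1 against WT, 3 in FLO8 against WT and 3 in FLO1 against FLO8 (9.19%, 11.8% and 14.8% of all genes). In flight, leaving out single arrays called 0 to 3 genes in FLO1 against WT and 0 to 1 in FLO1 against FLO8, both highest without FLO1 flight 2 (7.27% and 7.67% of all genes), and the FLO8 against WT median (0.02) was -0.10 with array weights, -0.11 without the 4 arrays and -0.083 (without FLO8 flight 2) to 0.093 without single arrays. The median difference of the flight differences, FLO8 against WT, was -0.11 with array weights and -0.13 without the 4 arrays. The F test called 10 genes with array weights (23.8% against 32.6%) and 0 to 1 without single arrays. The cause of these shifts was not tested. For the average and the F test no fit of the compared arrays alone was run, since both use every array. With array weights the estimation of weights gave a warning that its tolerance was not reached.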
